A study of Saccharomyces cerevisiae with 4 samples.

Results

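The autophagy genes described here are the 34 genes, of 6697 in the deposited table, whose listed name is ATG followed by a number. They were measured by RNA sequencing of total RNA from budding yeast (Saccharomyces cerevisiae), after growth at 30 °C in YPD (yeast extract, peptone and glucose) to an OD600 of 1.0. One group of 2 libraries came from a wild type described as isogenic (WT). The other group of 2 came from a strain in which 9 copies of the Myc epitope are fused to the N-terminal end of Swd2 (9Myc-Swd2). Swd2 is a subunit shared by the histone H3 lysine 4 methyltransferase complex COMPASS and by the cleavage and polyadenylation factor. The comparison asked how transcript levels differed with the tag. The labels name no other allele, agent or selectable marker, and do not say whether the tagged strain is 1 clone or whether a group's libraries are from separate cultures. The p-values therefore measure only the spread between these libraries, which may be technical.

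Macroautophagy encloses cytoplasm in a double membrane, the autophagosome, which fuses with the vacuole, where its content is broken down. The Atg1 kinase complex starts the process, vesicles that carry Atg9 and the lipid transfer protein Atg2 supply membrane, a phosphatidylinositol 3-kinase marks the site, and ubiquitin-like conjugation attaches Atg8 to lipid. Receptors such as Atg32 and Atg39 tie chosen cargo to the scaffold Atg11 and to Atg8 in selective autophagy, and the cytoplasm-to-vacuole targeting (Cvt) pathway uses the same machinery in growing cells to deliver vacuolar enzymes. The process is known to run at a low level in rich medium and to be induced by starvation.

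The deposited values came to between 7849193 and 8388090 whole steps per library, 1 step being what 1 read assigned to a gene is worth. The levels given are normalized read counts as the authors deposited them. A fold change is that of 9Myc-Swd2 over WT on the log2(value + 1) scale, with its standard error (SE), which understates the change of low genes. A gene is said to have risen or fallen where the Benjamini-Hochberg adjusted p of limma-trend over all 6503 tested genes was under 0.05. SWD2 was at 335 and 351 in WT and at 1080 and 969 in 9Myc-Swd2. It lies on chromosome XI, whose genes made up 5.78% and 5.80% of the normalized counts in WT and 9.66% and 9.41% in 9Myc-Swd2. Of the 342 tested genes there, 310 rose and 2 fell, with a median log2 fold change of 0.90. 0 of the 34 ATG genes lie on that chromosome. LEU2, a leucine synthesis gene and common marker on chromosome III, was at 31.4 and 22.4 in WT and at 2276 and 2163 in 9Myc-Swd2. Its part in the results was not tested. The tag, the levels of chromosome XI genes and LEU2 all differed between the same groups, so their parts cannot be told apart. With chromosome XI genes left out of the scaling and the test, 11 ATG genes rose and 5 fell, beside 1244 and 1249 over all genes. In that fit ATG41 was at a log2 fold change of 1.74. The genes that mark alpha cells summed to 9540 to 11805 in every library and those that mark a cells to 759 to 1248, with no marker at 0. 3 of 6 a-specific genes rose and 2 of 4 alpha-specific genes fell, beside 22.3% and 21.4% of all tested genes. STE6, 1 of the 3 that rose, lies on chromosome XI. The part of these markers in the results was not tested. In bulk RNA, fewer cells with a transcript and less of it per cell cannot be told apart.

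As a set, the ATG genes did not shift in one direction. Of the 34, 10 rose, 8 fell and 16 did not pass (43.7% of all tested genes changed in either direction), with a median log2 fold change of 0.04 against 0.00 over all genes tested. Without either WT library the counts of rises and falls were lower than with every library, both among members and over all tested genes. In every fit that leaves out a library, the lone library of its group is assumed to vary as the other group does. In the fits without a tagged library that spread is also drawn mainly from other genes. The 29.4% that rose stand beside 22.3% of all tested genes, and the 23.5% that fell beside 21.4%. Over all genes 1448 rose and 1393 fell, which became 1196 and 1728 when libraries were scaled to total counts, with 9 ATG genes that rose and 10 that fell. Among genes off chromosome XI, where all members lie, 18.5% rose and 22.6% fell. Both tagged libraries lay above both WT libraries in 15 members (44.1%, against 36.0% of all genes) and below them in 13 (38.2%, against 35.6%). Passing the threshold favours such separation, so among genes that passed it is no further support. The authors' deposited table has 8 members higher and 2 lower at an adjusted p under 0.05 among the 33 with an adjusted p, where 17.8% of all its genes are higher and 15.5% lower. All 10 of those genes passed here too, in the same direction.

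**Figure D1:**
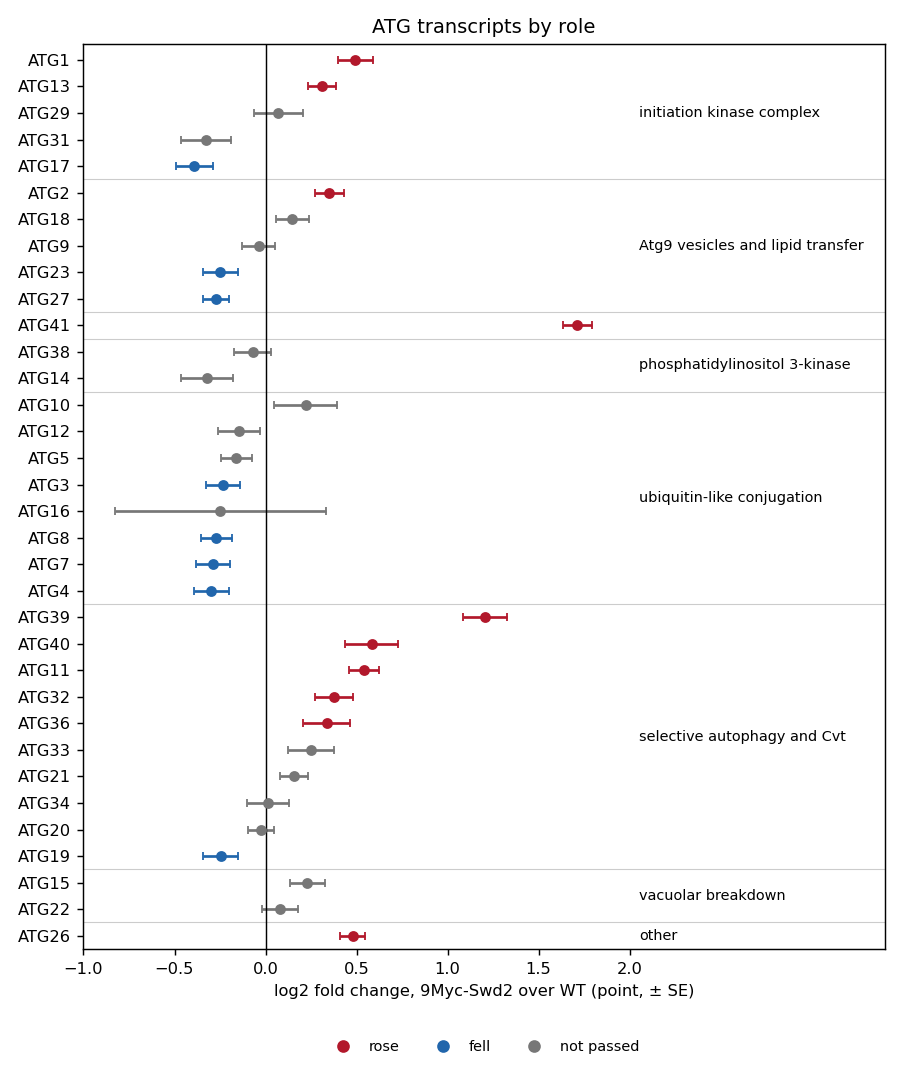
Log2 fold change of each of the 34 ATG genes, 9Myc-Swd2 over WT (x axis; point and SE, 2 libraries per group), ordered within roles. Red members rose, blue members fell and grey members did not pass the limma-trend threshold; ATG41 lies at 1.71, ATG39 at 1.21 and every other member between -0.39 and 0.58.

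ATG41 stood apart from the core and the selective genes in size. Atg41 interacts with Atg9 and is needed for the normal rate of autophagosome formation. The gene (YPL250C, also ICY2; R64 chromosome XVI, 74309 to 74719, minus strand, 1 coding exon) had normalized counts of 575 and 556 in WT and at 1709 and 2016 in 9Myc-Swd2. Both tagged libraries lay far above both WT libraries. The log2 fold change was 1.71 ± 0.08 (limma-trend adjusted p = 7e-11; 95% interval 1.54 to 1.88), which is 3.28-fold. It ranked 7th among the rises of all 6503 tested genes and 4th among those off chromosome XI.

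The level of ATG41 relative to the rest of the set moved with it. On the log2(value + 1) scale it exceeded the median of the 20 core genes (kinase complex, Atg9 and lipid transfer, phosphatidylinositol 3-kinase and conjugation) by 0.51 and 0.47 in the WT libraries and by 2.33 and 2.49 in the tagged libraries. Against the median of the 10 selective and Cvt genes the excess was 1.26 and 1.15 in WT and 2.36 and 2.56 in 9Myc-Swd2. The median level of the core genes, which can rest on different genes in each library, moved the other way, from 8.66 and 8.65 in WT to 8.41 and 8.49. Their median log2 fold change was -0.20. Of these genes 3 rose, 7 fell and 10 did not pass, beside 18.5% rising and 22.6% falling among all tested genes off chromosome XI. ATG39, a selective gene, came closest to ATG41, whose log2 fold change was larger by 0.51 ± 0.15 (95% interval 0.20 to 0.81, taking the errors of both genes as independent). The next, ATG40, was lower than ATG41 by a difference of 1.13 ± 0.17.

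No other change of that size lay next to ATG41 on the chromosome. Of the 3 protein-coding genes on each side, YAH1 rose by 0.41 ± 0.16 on the log2 scale, GYP5 rose by 0.26 ± 0.07, and RPL36B had -0.44 ± 0.14 and fell. HFI1, VIK1 and GAL4 lay between -0.12 and 0.01 and did not pass. YAH1, whose protein is a mitochondrial ferredoxin, is 427 bp from ATG41, and RPL36B, a ribosomal protein gene, is 979 bp from it. ICY1, the paralog of ATG41, was at 649 and 573 in WT and at 524 and 562 in 9Myc-Swd2 (-0.17 ± 0.09, limma-trend adjusted p = 0.13). The coding sequences of the pair share no identical run longer than 9 bp, and 0 of the 50-base stretches of any of the 34 members occur a second time in the R64 genome.

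**Figure D2:**
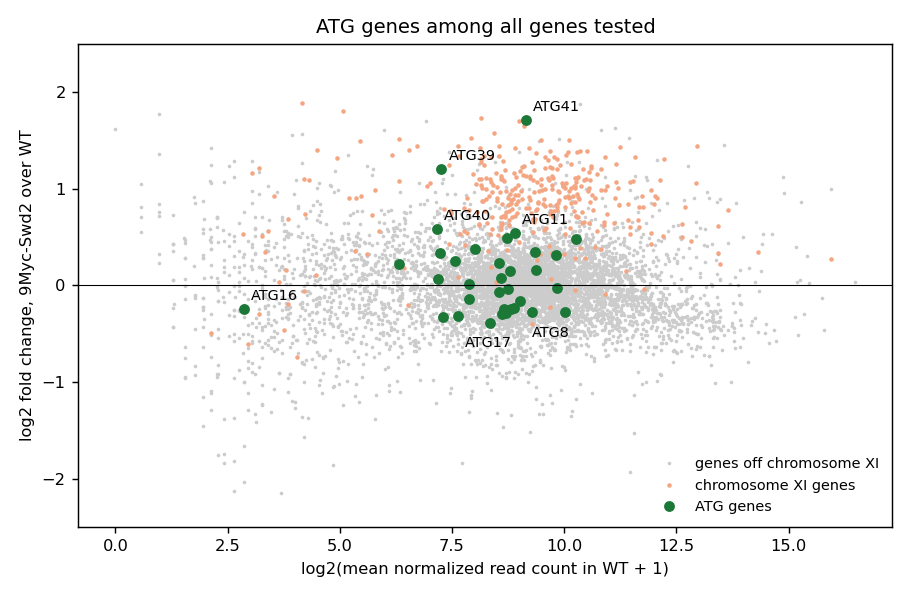
Log2 fold change (y axis, 9Myc-Swd2 over WT) against log2 of the mean normalized read count in WT plus 1 (x axis) for the 6503 genes tested, with chromosome XI genes in orange and ATG genes in green. ATG41 lies at 1.71, level with the upper chromosome XI genes, although it is on chromosome XVI; 1 gene lies outside the y axis.

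The genes of the Atg1 kinase complex, which starts autophagosome formation, split. ATG1, the kinase gene, was at 460 and 389 in WT and at 612 and 580 in 9Myc-Swd2, and rose by 0.49 ± 0.09 (limma-trend adjusted p = 0.000399). ATG13, whose protein is the regulatory subunit that nutrient signalling through TORC1 acts on, was at 930 and 871 in WT and at 1184 and 1053 with the tag, a rise of 0.31 ± 0.08 (limma-trend adjusted p = 0.00346). ATG17, the scaffold gene of the starvation complex, was at 333 and 318 in WT and at 244 and 252 in 9Myc-Swd2, and had -0.39 ± 0.10 (limma-trend adjusted p = 0.00518), a fall. In all 3 genes the groups did not overlap, beside 36.0% of all tested genes with both tagged libraries above WT and 35.6% with both below. ATG31 and ATG29, which encode the partners of Atg17, had -0.33 ± 0.14 and 0.07 ± 0.13 and did not pass; 24 bp of ATG29 overlap SET6 on the other strand. The limma adjusted p of ATG13 was 0.075 once WT replicate 2 was left out, and that of ATG17 was 0.076 once WT replicate 1 was left out.

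The genes of Atg9 vesicles and lipid transfer also split. ATG2, the lipid transfer gene, was at 683 and 628 in WT and at 815 and 857 in 9Myc-Swd2, and rose by 0.35 ± 0.08 (limma-trend adjusted p = 0.00156). ATG27 and ATG23, whose proteins travel with Atg9, fell. ATG27 was at 1055 and 1014 in WT and at 866 and 846 with the tag (-0.27 ± 0.07, limma-trend adjusted p = 0.00502). ATG23 was at 387 and 423 in WT and at 339 and 342 with the tag (-0.25 ± 0.10, limma-trend adjusted p = 0.0437). The tagged libraries lay outside the WT range in each of these genes. Over all tested genes they lay above it in 36.0% and below it in 35.6%. ATG9 itself, the gene of the membrane protein that Atg41 binds, was at 418 and 434 in WT and at 434 and 397 in 9Myc-Swd2, so the groups overlapped (-0.04 ± 0.09, limma-trend adjusted p = 0.77). ATG18, which encodes a phosphoinositide-binding partner of Atg2, had 0.15 ± 0.09 and did not pass. The limma adjusted p of ATG2 was 0.053 without WT replicate 2 and that of ATG27 was 0.080 without WT replicate 1, whereas that of ATG23 was 0.070 without 9Myc-Swd2 replicate 1, 0.084 without WT replicate 1 and 0.35 without WT replicate 2.

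In the ubiquitin-like conjugation systems 4 of 8 genes fell and 0 rose at the limma-trend threshold, with a median log2 fold change of -0.24. Of all tested genes off chromosome XI, 22.6% fell and 18.5% rose. Of those with coding lengths under 1000 bp, as ATG3, ATG5, ATG8, ATG10, ATG12 and ATG16 have, 30.9% fell and 11% rose. From 1000 to under 2000 bp, as in ATG4 and ATG7, 26.2% fell and 16.4% rose. In the conjugation group the count of rises at an unadjusted p under 0.05 was also 0. By the authors' deposited table none of the 8 was higher and none lower at an adjusted p under 0.05. ATG8, the ubiquitin-like protein that coats the growing membrane, was at 590 and 649 in WT and at 535 and 492 in 9Myc-Swd2 (-0.27 ± 0.09, limma-trend adjusted p = 0.0171). ATG4, the protease that processes Atg8, was at 386 and 393 in WT and at 323 and 309 with the tag (-0.30 ± 0.10, limma-trend adjusted p = 0.0169). ATG7, the activating enzyme of both systems, was at 424 and 409 in WT and at 335 and 347 with the tag (-0.29 ± 0.09, limma-trend adjusted p = 0.018). ATG3, the conjugating enzyme for Atg8, was at 457 and 488 in WT and at 387 and 416 with the tag (-0.23 ± 0.09, limma-trend adjusted p = 0.0457). All 4 had both tagged libraries below both WT libraries, as had 35.6% of all tested genes. The differences were small, with tagged levels at 0.81 to 0.85 of WT.

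These 4 calls were each lost when a library was left out, in fits where 1 group is a single library and the spread comes from the other group. The log2 fold changes of ATG4 and ATG7 stayed between -0.33 and -0.26 in all 4 such fits, with larger SEs, and those of ATG8 and ATG3 lay between -0.34 and -0.18. Without WT replicate 2 the limma adjusted p was 0.23 for ATG8, 0.14 for ATG4, 0.093 for ATG7 and 0.31 for ATG3. Without WT replicate 1 it was 0.094 for ATG4, 0.15 for ATG7 and 0.10 for ATG3. It was 0.062 for ATG8 without 9Myc-Swd2 replicate 2 and 0.16 for ATG3 without 9Myc-Swd2 replicate 1. ATG5 and ATG12, which encode the members of the second conjugate, had -0.16 ± 0.09 and -0.15 ± 0.12 and did not pass. ATG10, the conjugating enzyme gene for Atg12, had 0.22 ± 0.17. ATG16, whose protein binds that conjugate, was at only 6.65 and 5.83 in WT and at 4.25 and 6.05 with the tag. The table also lists YMR158W-B beside ATG16, an identifier with no RefSeq position here, and whether the pair shares reads was not tested.

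Of the genes for the phosphatidylinositol 3-kinase complex, neither ATG14, which encodes the subunit that directs it to autophagy, nor ATG38, which encodes a linker subunit, passed. ATG14 was at 198 and 200 in WT and at 137 and 184 in 9Myc-Swd2, and most of its difference, -0.32 ± 0.14 (limma-trend adjusted p = 0.078), came with the lower tagged library. With 9Myc-Swd2 replicate 2 left out, it was -0.53 with a limma adjusted p of 0.0012, where the spread is that of the WT libraries alone, which differed less from each other (a chi-square of 3.42 per gene against 8.84 between the tagged libraries). ATG38 had -0.07 ± 0.10. Of the partners listed under other names, VPS34, the catalytic subunit gene, rose by 0.33 ± 0.08. It was at 572 and 518 in WT and at 673 and 693 with the tag. Its coding length is 2628 bp, and 41.7% of genes off chromosome XI of at least 2000 bp rose. VPS15 and VPS30 (the yeast ATG6) had 0.17 ± 0.08 and -0.09 ± 0.09 and did not pass.

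**Figure D3:**
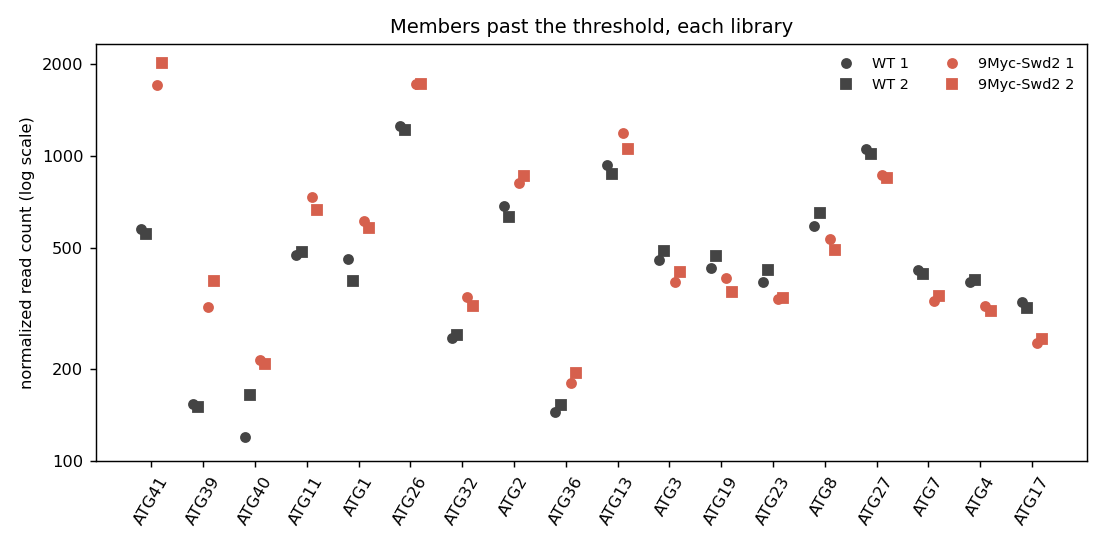
Normalized read counts (y axis, log scale) in each of the 4 libraries for the 18 ATG genes past the limma-trend threshold, ordered from the largest rise to the largest fall. WT libraries are dark and 9Myc-Swd2 libraries red. In each gene both tagged points lie on the same side of both WT points, which the choice of genes by the threshold favours. ATG41 is at 1709 and 2016 with the tag against 575 and 556 in WT.

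In the group of selective autophagy and Cvt genes 5 of 10 rose and 1 fell, with a median log2 fold change of 0.29, beside 18.5% and 22.6% of all tested genes off chromosome XI. ATG39, the receptor gene for autophagy of the nuclear envelope and the perinuclear endoplasmic reticulum, was at 154 and 151 in WT and at 320 and 388 in 9Myc-Swd2. Its rise of 1.21 ± 0.12 (limma-trend adjusted p = 3.05e-07) is 2.31-fold. ATG40, the receptor gene for the cortical and cytoplasmic endoplasmic reticulum, was at 120 and 164 in WT and at 214 and 208 with the tag (0.58 ± 0.15, limma-trend adjusted p = 0.00364). The lower of its WT libraries carried much of that rise, which was 0.36 with a limma adjusted p of 0.12 without WT replicate 1. ATG11, the scaffold gene of selective autophagy, was at 472 and 483 in WT and at 731 and 662 with the tag. It rose by 0.54 ± 0.08 (limma-trend adjusted p = 5.13e-05).

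The receptor genes for mitochondria and peroxisomes rose as well, with intervals that overlap that of ATG40. ATG32, the mitophagy receptor, was at 254 and 260 in WT and at 345 and 323 in 9Myc-Swd2 (0.38 ± 0.10, limma-trend adjusted p = 0.0064). ATG36, the pexophagy receptor, was at 144 and 153 in WT and at 181 and 195 with the tag (0.33 ± 0.13, limma-trend adjusted p = 0.0418). The tagged libraries lay above WT in both genes, as in 36.0% of all tested genes. ATG33, a mitochondrial protein needed for mitophagy after log phase, had 0.25 ± 0.13 and did not pass. Without WT replicate 1 the limma adjusted p was 0.063 for ATG32 and 0.23 for ATG36, and without WT replicate 2 it was 0.051 and 0.13. ATG36 was also at 0.12 without 9Myc-Swd2 replicate 2, while ATG33 was at 0.018 without that library. In the authors' deposited table the adjusted p was 0.053 for ATG32 and 0.20 for ATG36.

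The receptor genes of the Cvt pathway are ATG19 and ATG34. ATG19, which brings aminopeptidase 1 to the vacuole, was at 429 and 470 in WT and at 399 and 359 in 9Myc-Swd2. It had -0.25 ± 0.10 and fell (limma-trend adjusted p = 0.0456). Its limma adjusted p was 0.079 without WT replicate 1, 0.35 without WT replicate 2 and 0.19 without 9Myc-Swd2 replicate 2. ATG34, its paralog, was at 225 and 240 in WT and at 218 and 253 with the tag, with overlapping groups and a log2 fold change of 0.01 ± 0.12. ATG20, a sorting nexin gene, and ATG21, a phosphoinositide-binding protein gene, had -0.03 ± 0.07 and 0.16 ± 0.08 and did not pass. Among the 6 cargo receptor genes (ATG19, ATG32, ATG34, ATG36, ATG39 and ATG40) 4 rose and 1 fell, with a median of 0.36, beside the same 18.5% and 22.6%; that subset was picked after the values were seen.

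Neither of the ATG-named genes that act in the vacuole, ATG15 and ATG22, passed. ATG15, the lipase that opens the autophagic body, was at 393 and 353 in WT and at 453 and 420 in 9Myc-Swd2 (0.23 ± 0.10, limma-trend adjusted p = 0.062), with the tagged libraries above WT. Without 9Myc-Swd2 replicate 2 its limma adjusted p was 0.025. ATG22, a vacuolar amino acid exporter, had 0.08 ± 0.10. YBR139W, which RefSeq names ATG42 and the table does not, was at 845 and 786 in WT and at 990 and 939 with the tag and rose by 0.24 ± 0.07. ATG26 encodes a sterol glucosyltransferase that has no known part in autophagy in this species. It was at 1251 and 1214 in WT and at 1718 and 1716 in 9Myc-Swd2 and rose by 0.48 ± 0.07 (limma-trend adjusted p = 1.75e-05).

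Coding length moved with the fold changes. This was looked at after the values were seen. Of the 1250 tested genes off chromosome XI with a coding length of at least 2000 bp, 41.7% rose and 8% fell, with a median log2 fold change of 0.15. Of the 2297 genes under 1000 bp, 11% rose and 30.9% fell, with a median of -0.12. All 5 long members that rose, namely ATG1, ATG2, ATG11, ATG13 and ATG26, belong to the first class, where ATG9 was the only member that did not rise, and 0 of its 6 members fell. ATG41, at 411 bp, and ATG40 and ATG36, at 771 and 882 bp, rose in the class where rises were rarest. Length also moved with the difference between replicates: the median of WT 1 minus WT 2 was -0.04 in the short class and 0.05 in the long class.

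With the trend on length taken out of each library, ATG41 had a log2 fold change of 1.79 ± 0.07 and ATG39 one of 1.27 ± 0.12. Under that treatment 1356 of all genes rose and 1356 fell. Among members 10 rose and 4 fell, and 9 of the rises and all 4 falls were calls made without it too. ATG2 no longer passed (0.11 ± 0.07, limma adjusted p = 0.24), and ATG3, ATG19, ATG23 and ATG27 did not pass as falls, with limma adjusted p between 0.067 and 0.25. ATG33 passed as a rise (0.36 ± 0.12, limma adjusted p = 0.025). In the selective and Cvt group 6 of 10 then rose and 0 fell, with a median log2 fold change of 0.36. In the conjugation group 0 of 8 rose and ATG4, ATG7 and ATG8 fell, with a median of -0.14. Of the 20 core genes 2 then rose and 4 fell, with a median of -0.14. What set the trend was not tested.

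**Figure D4:**
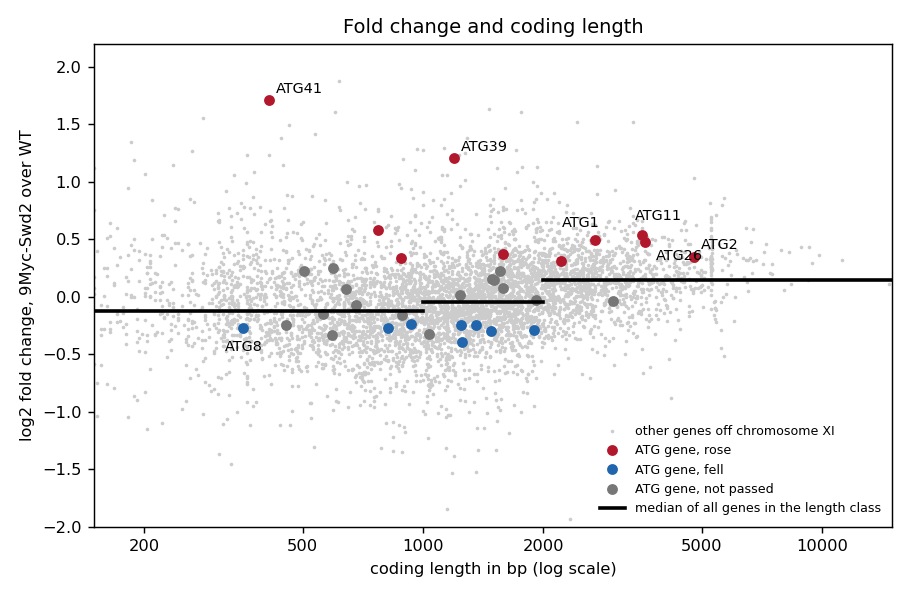
Log2 fold change (y axis, 9Myc-Swd2 over WT) against coding length in bp (x axis, log scale) for genes off chromosome XI, with ATG genes coloured by call and black lines at the median of all genes under 1000, from 1000 to under 2000 and at least 2000 bp. The medians are -0.12, -0.05 and 0.15, and ATG41, at 411 bp, lies at 1.71; 59 genes lie outside the axes.

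Per kilobase of coding sequence the order of transcript levels among members changed at its top, in its middle and near its foot. In the middle, ATG17 went from 18th in WT to 26th in 9Myc-Swd2, and ATG40 from 25th to 17th. In WT the highest mean was that of ATG8, at 1751 ± 118 normalized counts per kb (SD, n = 2), followed by ATG41 at 1376 ± 32.8 and ATG27 at 1268 ± 35.7. All others were at 584 or less. In 9Myc-Swd2 ATG41 was highest at 4532 ± 529, with ATG8 at 1450 ± 85.7 and ATG27 at 1049 ± 17.1. ATG39 was 33rd of 34 in WT, at 127 ± 1.96, and 15th in 9Myc-Swd2, at 296 ± 40.2. Its nearest neighbours in the WT order, ATG11 at 135 ± 2.14 and ATG2 at 137 ± 8.21, did not differ from each other beyond their spread. ATG16 was lowest in both groups, at 13.8 ± 1.28 and 11.4 ± 2.80.

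Sequences upstream of the start codons were searched on both strands, over 500 bases of the RefSeq R64 assembly, for letters that known regulators of ATG genes bind. GGCGGC is the core of the site of the repressor Ume6, GATAAG that of the GATA factors Gln3 and Gat1, TGANTCA that of Gcn4, and AGGGG that of Msn2 and Msn4. The stretches below show the GGCGGC match of ATG8, a known target of Ume6, and the GATAAG matches nearest the start codon in the 4 receptor genes that rose. They read 5′ to 3′ on the strand of the gene, with the match in capitals.
ATG8, chrII:80848-80875, minus strand: cggttattttcGGCGGCggcaaaaatat
ATG39, chrXII:759068-759095, minus strand: cgcgacagctgCTTATCaaggtacctgg
ATG40, chrXV:618363-618390, minus strand: ttcaaatcgagGATAAGatttttgtagt
ATG32, chrIX:75819-75846, minus strand: cttctcttatcGATAAGcaatattgaag
ATG36, chrX:83420-83447, minus strand: tgagatattagGATAAGgttccagtgca
The ATG8 match begins 133 bases before the start codon, and another begins 3 bases on, overlapping it, at 130 bases. ATG39 carries its match as the reverse complement. GATAAG also lies upstream of ATG8, at 60 bases, and of ATG19, the receptor gene that fell, at 87 bases.

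The GATAAG letters were found upstream of 14 of the 34 members (41.2%) and of 22.8% of all 6000 coding genes with a full window. They were present in 5 of the 10 members that rose, in 3 of the 8 that fell (ATG4, ATG8 and ATG19) and in 6 of the 16 that did not pass. GGCGGC was found in ATG8 and ATG19 alone among members, which is 5.88% against 9.57% of all genes, and both of these genes fell. TGANTCA was found in 4 members, ATG18, ATG20, ATG29 and ATG38, none of which passed (11.8% of members and 11.8% of all genes). AGGGG was found in 16 members (47.1%, against 34.1%). They were 4 of the 10 that rose, 5 of the 8 that fell and 7 of the 16 that did not pass. 0 of the 4 motifs were in the window upstream of ATG41. A match describes the letters only.

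Of 15 genes for regulators of ATG transcripts, 7 rose and 2 fell, with a median log2 fold change of 0.29, beside 22.3% and 21.4% of all tested genes. RPD3, the histone deacetylase that acts with Ume6, was at 1393 and 1478 in WT and at 867 and 891 in 9Myc-Swd2 (-0.71 ± 0.07). UME6 was at 980 and 1022 in WT and at 890 and 795 with the tag and had -0.25 ± 0.08. Both genes fell, with both tagged libraries below both WT libraries, as in 35.6% of all tested genes. SPT10, which encodes a regulator of histone genes, was at 496 and 436 in WT and at 724 and 680 with the tag (0.59 ± 0.09). RPH1, a histone demethylase gene whose product represses ATG genes, was at 835 and 728 in WT and at 1060 and 994 with the tag (0.40 ± 0.08). MSN4 (1.03 ± 0.07) lies on chromosome XI, where 310 of the 342 tested genes rose. GLN3, SIN3, MSN2 and GAT1 also rose, by 0.29 to 0.44. RPH1, GLN3, SIN3 and MSN2 are at least 2000 bp long, a class in which 41.7% of genes off chromosome XI rose. In that class UME6 fell and SPT5 did not pass. GCN4, whose protein raises ATG41 expression in starved cells, was at 4445 and 5004 in WT and at 4518 and 4239 with the tag (-0.11 ± 0.08, limma-trend adjusted p = 0.27); Gcn4 is controlled mainly by translation, which these data do not measure.

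Of 19 nutrient signalling genes, 9 rose and 1 fell, with a median of 0.11, beside 22.3% and 21.4% of all tested genes. TOR2 and TPK3, with 1.17 ± 0.07 and 0.77 ± 0.08, lie on chromosome XI. Off it, SCH9, a kinase gene downstream of TORC1, was at 715 and 648 in WT and at 1087 and 957 in 9Myc-Swd2 (0.58 ± 0.08), and LST8, a TOR complex subunit gene, was at 791 and 696 in WT and at 1004 and 1161 with the tag (0.54 ± 0.09). These genes had tagged libraries above both WT libraries, as had 36.0% of all tested genes. Of those that rose, SCH9, RIM15, NPR1, KOG1 and TOR1 lie off chromosome XI and are at least 2000 bp long. In that class 41.7% of genes off chromosome XI rose, while GCN2, IML1, TCO89 and NPR3, also in it, did not pass.

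Among 13 genes for transport to and fusion with the vacuole, 1 rose and 3 fell, with a median of -0.01, which is near the 21.4% of all tested genes for the falls and below their 22.3% for the rises. The SNARE gene YKT6, the one that rose (1.03 ± 0.07), lies on chromosome XI. YPT7, the Rab GTPase gene of the vacuole, was at 1282 and 1163 in WT and at 864 and 1006 in 9Myc-Swd2 (-0.39 ± 0.08), and the SNARE genes VTI1 and VAM3 had -0.27 ± 0.08 and -0.29 ± 0.09; these 3 fell. Of 8 genes for vacuolar hydrolases and Cvt cargo, 4 rose and 1 fell, beside 22.3% and 21.4% of all tested genes. APE1, the main Cvt cargo, was at 1549 and 1482 in WT and at 3262 and 3199 with the tag, and it too lies on chromosome XI. AMS1, the alpha-mannosidase that Atg34 carries under starvation, was at 490 and 454 in WT and at 668 and 671 with the tag. It rose by 0.50 ± 0.08. At 3252 bp it is in the class of at least 2000 bp, where 41.7% of genes off chromosome XI rose. CPS1, a carboxypeptidase gene, rose by 0.39 ± 0.07, PEP4, the vacuolar proteinase A gene, rose by 0.20 ± 0.07, and APE4, another Cvt cargo gene, had -0.24 ± 0.07 and fell.

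Of 8 other Cvt and selective factors, 2 rose, VAC8 and TRS85, and the others did not pass. Of all tested genes 22.3% rose and 21.4% fell, so the rises were near that share. VAC8, whose vacuolar membrane protein anchors Atg13, was at 924 and 874 in WT and at 1184 and 1122 in 9Myc-Swd2 (0.36 ± 0.07). TRS85, a subunit gene of the TRAPP complex that acts in autophagy, rose by 0.26 ± 0.09. It was at 385 and 379 in WT and at 449 and 467 with the tag. At 2097 bp it is in the class of at least 2000 bp, where 41.7% of genes off chromosome XI rose. DNM1, also in that class, did not pass. SNX4, the yeast ATG24, had 0.14 ± 0.07 and did not pass, nor did YIL156W-B, which RefSeq names ATG44, at 0.04 ± 0.10.

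**Figure D5:**
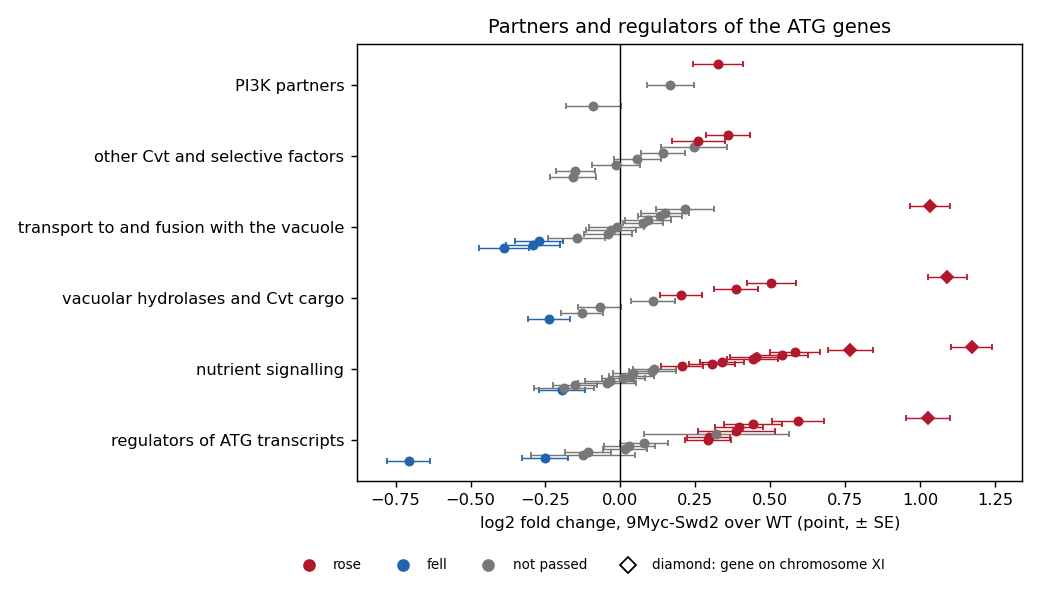
Log2 fold changes (x axis, point and SE, 9Myc-Swd2 over WT) of the genes in 6 lists of partners and regulators of the ATG genes, coloured by call. Diamonds are genes on chromosome XI, which hold the largest rise in the lists for fusion, hydrolases and cargo, signalling and regulators, between 1.03 and 1.17.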

How the data were processed

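Total RNA of 4 yeast samples was made into libraries with a directional kit, per the labels' protocols. The submitters' processing notes name bcl2fastq 1.8.4 and the build sacCer3; aligner, counter and strand setting: not given in the sources used here. The deposited values are counts per gene that the authors divided by 1 factor per library (a normalized signal): in each library 100% of values were whole multiples of 1 step (tolerance 0.0001). The authors' deposited table also holds log2 fold changes, a test score, baseline signal, log10 group means and p-values; its fold changes and adjusted p-values served as an alternative.

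Values were tested as log2(value + 1) with limma 3.58.1 in R 4.3.3 (trend, two-sided, Benjamini-Hochberg adjustment), for genes with a mean of at least 1. With 2 libraries a group there are 2 residual degrees of freedom, and an exact permutation test cannot reach 0.05. With those that limma borrows from the spread of all genes there are 17.1. The p-values, SEs and intervals therefore rest largely on the spread of other genes. Genes are on R64 (RefSeq), where 6014 of 6697 identifiers (89.8%) and all 34 members matched a locus tag. The fit was checked on simulated data. Values in full were given for ATG41, each member past the threshold and the member of smallest p in each role.

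The members and lists were chosen with earlier results of these data known. The length classes, the removal of the length trend, the 500-base window, the receptor subset, and the naming of LEU2, YBR139W, YIL156W-B and YMR158W-B were chosen after values were seen.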

Additional observations from a re-analysis of the deposited data

How the results depend on the processing

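Each result was recomputed under 14 alternatives. ATG41 kept its direction and its call under all of them, at log2 fold changes of 1.59 to 1.83 and adjusted p between 4.2e-123 and 0.0076. The smallest came from limma with the replicate block. There, and in the fits without a tagged library, the spread is drawn mainly from other genes. Of the 18 members that passed, ATG11, ATG26, ATG39 and ATG41 passed under every alternative and 0 changed sign. Of 474 results for single members, 62 lost a call, 12 gained one and 8 changed sign.

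The count of ATG genes that fell, 8, was 5 under quantile normalization, limma without a trend, and size factors and test without chromosome XI genes. It was 4 with the length trend removed, which was added after seeing the data, 2 with no filter, and 2 in the authors' deposited table. Leaving out 1 library gave 1 to 6. The count that rose, 10, was 6 with no filter and 6 to 11 without 1 library. Over all genes, 950 rose and 847 fell with no filter, and 882 fell in limma without a trend. Without 1 library 972 to 1596 rose and 780 to 1440 fell. The cause was not tested.

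Some members that did not pass changed sign. Without 9Myc-Swd2 replicate 2 and replicate 1 in turn, ATG9 was at 0.0255 and -0.1016, ATG29 at -0.0043 and 0.1432, and ATG34 at -0.0928 and 0.1213. ATG22 was at -0.0162 without 9Myc-Swd2 replicate 2. ATG34 was at -0.0439 under total-count scaling and -0.0315 without WT replicate 1. ATG38 was at 0.0045 without WT replicate 2, -0.1465 without WT replicate 1 and 0.0508 with the length trend removed.

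The replicate number as a block gave 11 ATG genes that rose and 10 that fell, with 1619 and 1566 over all genes. Same-numbered libraries deviated with a correlation of 0.18 over 5497 genes, and with 2 pairs the numbers do not show a pairing. All values lay on whole steps, but the step of 9Myc-Swd2 replicate 2, 1.01, was too near 1 for the unit check to accept its values as recovered reads, and the count-model tests planned as alternatives were not run.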
